A study of Homo sapiens with 6 samples.

Results

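The 10 genes described here are the stress sensors of the endoplasmic reticulum (ER), one transcription factor they act through, and chaperones and quality-control genes that the sensors induce. They were taken by symbol from a table of 60606 genes, in which each of the 10 symbols occurred once. The sensors are ATF6, ERN1 (the protein IRE1) and EIF2AK3 (the protein PERK), the factor is XBP1, and the 6 targets are HSPA5, HSP90B1, PDIA4, DNAJB9, HERPUD1 and CALR. All 10 passed the filter on low values, a mean of at least 1 TPM (a gene's share of all transcripts, corrected for its length) over the 6 tumors.

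RNA was sequenced from whole tumors of wild-type (WT) MDA-MB-231, a line from a human triple-negative breast cancer, injected with Matrigel under the skin of the left flank. The hosts were NSG mice (NOD/SCID/IL2Rγ-null), whose age is not given. These mice lack T, B and natural killer cells but keep their own connective tissue, vessels, muscle and myeloid cells. The 3 irradiated tumors were exposed once to 10 Gy of X-rays at the tumor site at about 800 mm3 and were taken 3 days later, and the 3 control tumors were not irradiated, with no size or time of collection given for them. Every tumor grew from the same line, and no label ties each tumor to a mouse of its own. The p-values therefore measure only how far these 6 samples spread, which may be technical.

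Proteins that enter the secretory pathway fold in the ER. When unfolded protein accumulates there, the chaperone HSPA5 leaves the sensors: ATF6 moves to the Golgi, where proteases release its transcription factor domain, ERN1 splices the XBP1 mRNA so that it encodes an active factor, and EIF2AK3 phosphorylates the translation factor eIF2alpha. ATF6 and XBP1 then bind ER stress response elements (ERSE) in the promoters of chaperone genes. These steps are mostly changes of protein and of splicing, which gene-level TPM do not show, and spliced XBP1 was not analysed here.

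The promoter windows show which of the 10 genes carry that element. RefSeq windows (GRCh38.p14, from 250 bases before to 50 after the start) were found for all 10 genes, and were searched on both strands for 4 patterns, namely ERSE (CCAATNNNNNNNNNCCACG), its shorter form ERSE-II (ATTGG, any 1 base, then CCACG), the core of the unfolded protein response element (TGACGTGG) and the CCACG that ends each ERSE and ERSE-II. The ERSE was present in 27 of 35116 windows (0.0769%), and 4 of the 10 genes held it: XBP1, HSPA5, HSP90B1 and CALR. The ERSE-II was present in 19 windows (0.0541%), among them that of HERPUD1. The elements of these 5 genes are shown because XBP1 and 4 of the 6 targets hold one in these windows and none of the 3 sensors does. Capitals mark the element, lower case its flanks where no annotated exon lies, and each is written 5′ to 3′ on the strand of the gene.
HSPA5: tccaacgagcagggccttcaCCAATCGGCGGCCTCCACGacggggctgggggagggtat
CALR: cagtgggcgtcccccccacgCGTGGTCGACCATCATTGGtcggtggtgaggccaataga
HSP90B1, distal: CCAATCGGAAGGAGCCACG
HSP90B1, proximal: CGTGGTGCGGCGCGATTGG
XBP1: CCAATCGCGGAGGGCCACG
HERPUD1: ATTGGGCCACG

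The HSPA5 stretch is chr9:125241371-125241429 on the minus strand, with the element 66 to 48 bases before the start, and the CALR stretch is chr19:12938364-12938422 on the plus strand, 225 to 207 bases before the start. HSP90B1 held a pair of elements, at chr12:103930216-103930234 (194 to 176 bases before the start) and chr12:103930321-103930339 (89 to 71), both on the plus strand. The XBP1 element is chr22:28800603-28800621 on the minus strand (52 to 34 bases before the start) and that of HERPUD1 is chr16:56932025-56932035 on the plus strand (117 to 107). The CALR element and the proximal HSP90B1 element match in reverse, so there the sequence starts with CGTGG and ends with ATTGG. The windows of ATF6, ERN1, EIF2AK3, PDIA4 and DNAJB9 held no exact ERSE or ERSE-II, which says only that these letters are not in those windows. CCACG alone was in windows of 8 of the 10 genes, all but ATF6 and ERN1, and in 38.1% of all windows. None of the 10 genes held TGACGTGG, which was in 0.729% of windows.

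The test was limma on log2(TPM + 1), fitted over 14140 genes, and fold changes below are irradiated minus control on that scale, which understates changes of low genes. ATF6 rose, and no other of the 10 genes passed an adjusted p of 0.05. Thus 1 of 10 was called, against 2.98% of all tested genes, with 1 higher (1.37% of tested genes) and 0 lower (1.61%). At an unadjusted limma p under 0.05 there were 3 higher (ATF6, HSPA5 and PDIA4) and 0 lower. Of the 14140 tested genes, 20.5% reached it in either direction, 1263 higher and 1633 lower. The fold change was above 0 in 9 of the 10, against 44.3% of all tested genes, and the median was 0.40 against -0.06 over all tested genes. In 3 of the 10 (ATF6, ERN1 and HSPA5) every irradiated tumor was above every control, which held for 11.6% of tested genes. None showed the opposite, which held for 15.0%, and groups stood apart in one direction or the other in 26.6% of tested genes.

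**Figure D1:**
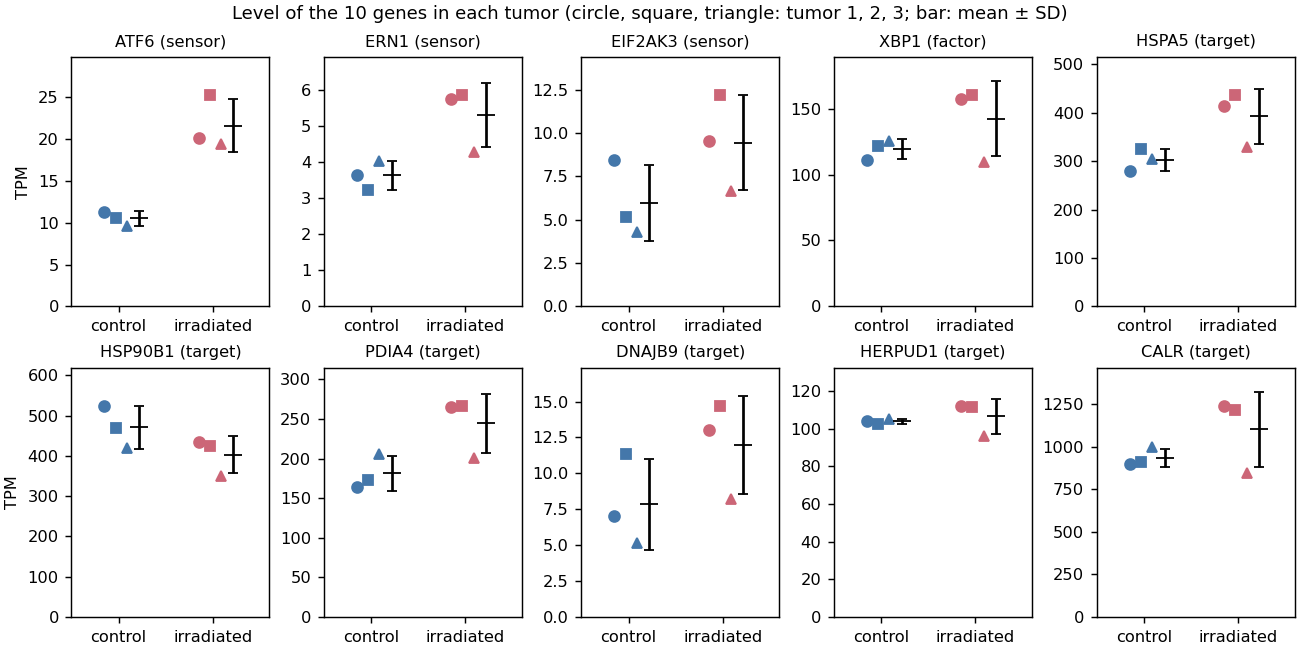
Level in TPM of each of the 10 genes in each tumor, with a linear axis from 0 per gene. Circles, squares and triangles are tumors 1, 2 and 3 of a group, and the bar beside them is the mean ± SD (n = 3). ATF6 stands at 19.4 to 25.3 TPM in irradiated tumors and at 9.63 to 11.3 TPM in controls, and irradiated tumor 3 is the lowest irradiated tumor in all 10 panels.

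2 tumors matter for reading these values. Control tumor 2 stood apart from the other 5 on the second principal component, with 19.1% of the variance over all tested genes (-51.8 against -0.72 to 20.4). Ribosomal protein genes made up 27% of its TPM, against 19.9% to 22.3% in the other tumors. It also had the fewest genes at 1 TPM or more (13392, against 13833 to 14218). Without it the number of called genes over the whole table went from 421 to 791, ATF6 kept its call and the other members stayed uncalled. Irradiated tumor 3 was the lowest of the 3 irradiated tumors in all 10 genes. On the first component, with 40.4%, it lay with the other irradiated tumors (35.2, against 26.7 and 41.0, and -44.9 to -21.5 in controls).

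Among the sensors, ATF6 is the one whose transcript showed the clearest difference. ATF6 (ENSG00000118217, chromosome 1, 161766294 to 161964070 in GRCh38) encodes the membrane-bound transcription factor described above. Its level was 11.3, 10.6 and 9.63 TPM in control tumors 1, 2 and 3, and 20.2, 25.3 and 19.4 TPM in irradiated tumors 1, 2 and 3. The lowest irradiated tumor lay well above the highest control. Its mean went from 10.5 ± 0.852 to 21.6 ± 3.20 TPM (SD, n = 3), a ratio of means of 2.06 and a log2 fold change of 0.97 (SE 0.17, 95% interval 0.58 to 1.36, limma adjusted p = 0.0273). Of all tested genes, 96.9% had a lower fold change. Leaving out control tumor 2 kept the call (adjusted p = 0.0356), and each of the other 5 omissions lost it, at 0.0647 for control tumor 1, 0.0867 for control tumor 3, and 0.0971, 0.104 and 0.0697 for irradiated tumors 1, 2 and 3, where the fold change was 0.85 to 1.04 and the test also had fewer samples. It was lost too with no filter on low values (0.0666) and with a replicate block (0.0719).

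ERN1 (ENSG00000178607, chromosome 17, 64039142 to 64130819), a kinase and endonuclease of the ER membrane, was the least abundant of the 10. Its level was 3.64, 3.22 and 4.04 TPM in controls and 5.76, 5.86 and 4.29 TPM in irradiated tumors. The groups did not overlap, but irradiated tumor 3 exceeded control tumor 3 by little. Its log2 fold change was 0.44 (SE 0.21, 95% interval -0.04 to 0.91, limma adjusted p = 0.277).

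EIF2AK3 (ENSG00000172071, chromosome 2, 88556741 to 88627576), the kinase that phosphorylates eIF2alpha, was at 8.43, 5.14 and 4.28 TPM in controls and at 9.51, 12.2 and 6.65 TPM in irradiated tumors. Control tumor 1 lay above irradiated tumor 3, so the groups overlapped. The log2 fold change was 0.60 (SE 0.29, 95% interval -0.06 to 1.26, limma adjusted p = 0.284), and it was 0.35 without control tumor 2 and irradiated tumor 2 together. This sensor spread more than the other sensors within groups, by 36.8% of the mean in controls and 29.3% in irradiated tumors, against 8.10% to 16.6% for ATF6 and ERN1. Exons of 2 noncoding genes on the opposite strand overlap it, neither above 0.63 TPM in any tumor, and the use of strand is not given in the sources used here.

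XBP1 (ENSG00000100219, chromosome 22, 28794555 to 28800597) was at 111, 122 and 125 TPM in controls and at 157, 160 and 110 TPM in irradiated tumors. Irradiated tumors 1 and 2 were above every control, and irradiated tumor 3 was below every control. This gave a log2 fold change of 0.23 (SE 0.17, 95% interval -0.16 to 0.62, limma adjusted p = 0.473). It was 0.15 without irradiated tumor 1, 0.14 without irradiated tumor 2 and 0.41 without irradiated tumor 3 (adjusted p = 0.202).

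The 6 targets were far more abundant than the sensors, with DNAJB9 as the exception, and none was called. HSPA5 (BiP, ENSG00000044574, chromosome 9, 125234853 to 125241330), the main HSP70 chaperone of the ER and a brake on the sensors, was at 279, 324 and 306 TPM in controls and at 413, 437 and 329 TPM in irradiated tumors. All irradiated values exceeded all controls, with irradiated tumor 3 just above control tumor 2. Its log2 fold change was 0.37 (SE 0.14, 95% interval 0.04 to 0.70, limma adjusted p = 0.201).

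PDIA4 (ENSG00000155660, chromosome 7, 149003062 to 149028641), a protein disulfide isomerase that helps disulfide bonds form, was at 165, 173 and 206 TPM in controls and at 265, 267 and 201 TPM in irradiated tumors. Irradiated tumor 3 lay below control tumor 3. The log2 fold change was 0.42 (SE 0.16, 95% interval 0.06 to 0.79, limma adjusted p = 0.180).

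DNAJB9 (ERdj4, ENSG00000128590, chromosome 7, 108569568 to 108574850), a J-domain partner of HSPA5, was at 7.05, 11.3 and 5.13 TPM in controls and at 13.0, 14.7 and 8.19 TPM in irradiated tumors. Control tumor 2 lay above irradiated tumor 3. Its log2 fold change was 0.58 (SE 0.31, 95% interval -0.12 to 1.28, limma adjusted p = 0.324), the largest among the targets, and with 1 tumor left out it ran from 0.35 without control tumor 3 (adjusted p = 0.617) to 0.85 without control tumor 2 (adjusted p = 0.109). It was 0.90 with sample weights (adjusted p = 0.0772). Exons of THAP5 and PNPLA8 overlap DNAJB9 on the opposite strand. These partners had fold changes of -0.13 and 0.16 and reached at most 5.88 TPM.

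CALR, the calcium-binding lectin calreticulin (ENSG00000179218, chromosome 19, 12938578 to 12944489), was the most abundant of the 10. Its level was 896, 913 and 996 TPM in controls and 1241, 1218 and 847 TPM in irradiated tumors. Like XBP1, it was above every control in irradiated tumors 1 and 2 and below every control in irradiated tumor 3. This gave a log2 fold change of 0.22 (SE 0.17, 95% interval -0.16 to 0.60, limma adjusted p = 0.492). Without irradiated tumor 1, 2 or 3 it was 0.12, 0.13 or 0.40, the last with an adjusted p of 0.188.

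HERPUD1 (ENSG00000051108, chromosome 16, 56932048 to 56944863), an ER membrane protein of the degradation machinery, was almost level. It stood at 104, 102 and 105 TPM in controls and at 112, 112 and 95.9 TPM in irradiated tumors, with a log2 fold change of 0.03 (95% interval -0.25 to 0.32, limma adjusted p = 0.907). That interval leaves out changes as large as the one measured for ATF6. Its sign turned without irradiated tumor 1 or irradiated tumor 2, and it was 0.11 without irradiated tumor 3.

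HSP90B1 (GRP94, ENSG00000166598, chromosome 12, 103930107 to 103953645), the HSP90 chaperone of the ER, was the only one of the 10 with a fold change below 0. It was at 525, 470 and 419 TPM in controls and at 434, 425 and 350 TPM in irradiated tumors, with overlapping groups. The log2 fold change was -0.22 (SE 0.14, 95% interval -0.55 to 0.10, limma adjusted p = 0.408), and it was below 0 in all 18 alternatives. It shrank to -0.13 without irradiated tumor 3, and to -0.14 both without control tumor 1 and with sample weights. HSP90B1 exceeded HSPA5 in each control tumor and in irradiated tumors 1 and 3, and lay just below it in irradiated tumor 2. Exons of C12orf73 and TTC41P overlap HSP90B1 on the opposite strand and reached at most 13.5 TPM, and an exon of MIR3652, at 0 TPM, overlaps it on the same strand.

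**Figure D2:**
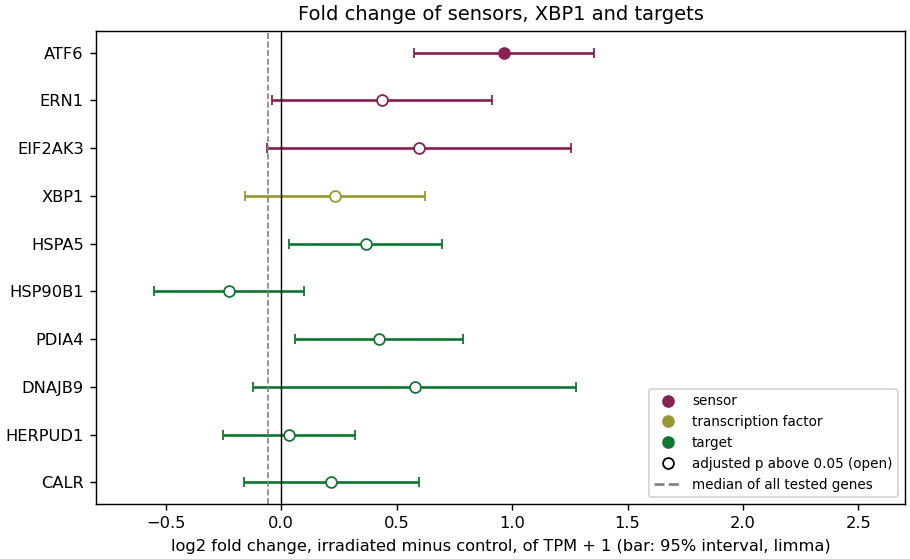
Log2 fold change of each of the 10 genes (irradiated minus control, on TPM + 1) with its 95% interval from limma, coloured by role, with the dashed line at the median of all tested genes. ATF6 at 0.97 is the only filled point (adjusted p = 0.0273), 9 of 10 points lie above 0, and HSP90B1 lies at -0.22.

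By level per gene length, averaged over the 6 tumors, the order was CALR (1019 TPM), HSP90B1 (437), HSPA5 (348), PDIA4 (213), XBP1 (131), HERPUD1 (105), ATF6 (16.1), DNAJB9 (9.91), EIF2AK3 (7.70) and ERN1 (4.47). The ranges of neighbours in that order overlapped between HSP90B1 and HSPA5, between XBP1 and HERPUD1, and along the chain from ATF6 through DNAJB9 and EIF2AK3 to ERN1. The 3 sensors and DNAJB9 thus formed a low tier that reached at most 25.3 TPM in any tumor, and the other 6 genes a high tier that was at least 95.9 TPM in every tumor. In the fit as described, the fold changes of the 4 low genes (0.44 to 0.97) lay above those of the 6 high genes (-0.22 to 0.42), with ERN1 and PDIA4 nearly equal. Over all tested genes the median fold change was -0.02 for 4251 genes with means from 1 to 5 TPM, -0.08 for 2260 from 5 to 10 TPM, -0.07 for 2398 from 10 to 20 TPM, -0.07 for 680 from 100 to 200 TPM, -0.06 for 392 from 200 to 500 TPM and -0.06 for 246 genes at 500 TPM or more. Role and level go together in these genes, and DNAJB9 is the only target in the low tier, so whether the fold changes go with being a sensor or with a low level cannot be told apart among the members.

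Sensors were set against targets within each tumor as the mean log2(TPM + 1) of the 3 sensors minus that of the 6 targets. The difference was -4.32, -4.73 and -4.61 in control tumors and -4.22, -4.03 and -4.11 in irradiated tumors, so the irradiated values lay above the controls, with control tumor 1 close to irradiated tumor 1. The mean was -4.55 ± 0.21 in controls and -4.12 ± 0.09 in irradiated tumors (SD, n = 3), a shift of 0.43 toward the sensors. It was 0.35 to 0.55 with each tumor left out in turn (0.43 without irradiated tumor 3) and 0.27 with a pseudocount of 5 TPM. It is given as a description without a test, because the members were chosen with results of these data known. The sensors alone went from 2.83 ± 0.17 to 3.49 ± 0.26 and the targets alone from 7.38 ± 0.08 to 7.61 ± 0.24.

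The arms differed in level among the irradiated tumors. In irradiated tumor 3 the targets stood at 7.33, within the control range of 7.33 to 7.47, while the sensors stood at 3.23, above the highest control at 3.03. In irradiated tumors 1 and 2 both arms were above all controls, with targets at 7.74 and 7.77 and sensors at 3.52 and 3.74. In TPM, the targets summed to 1975, 1993 and 2037 in controls and to 2478, 2473 and 1831 in irradiated tumors, and the sensors to 23.4, 18.9 and 18.0 and to 35.4, 43.3 and 30.3. Without irradiated tumor 3 the median fold change of the 10 genes was 0.52 and none was called by limma, with HSPA5 at 0.49 (adjusted p = 0.145) and PDIA4 at 0.56 (adjusted p = 0.141).

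**Figure D3:**
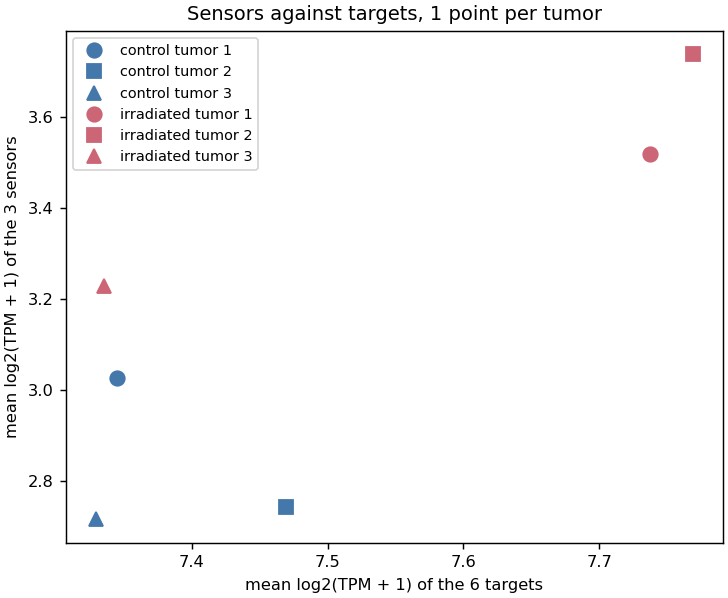
Mean log2(TPM + 1) of the 3 sensors (vertical axis) against that of the 6 targets (horizontal axis), 1 point per tumor, on axes that do not start at 0. All 3 irradiated tumors lie above the controls on the sensor axis, and on the target axis irradiated tumor 3, at 7.33, lies among the controls.

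In the fit as described, members with an ERSE or ERSE-II had lower fold changes than members with neither. The 4 ERSE holders had log2 fold changes of 0.37 (HSPA5), 0.23 (XBP1), 0.22 (CALR) and -0.22 (HSP90B1, which holds a pair). HERPUD1, with the ERSE-II, was at 0.03. ATF6, EIF2AK3, DNAJB9, ERN1 and PDIA4 held neither and were at 0.97, 0.60, 0.58, 0.44 and 0.42, PDIA4 just above HSPA5. Of the genes with neither, all but PDIA4 are in the low tier, and every holder is in the high tier. Holding an element and level therefore cannot be told apart among the members. Over the whole table, 16 tested genes held the ERSE, 0 of them were called by limma, 4 had an unadjusted p under 0.05, and 14 had a fold change above 0, with a median of 0.18. Of all tested genes, 2.98% were called, 20.5% had an unadjusted p under 0.05 and 44.3% had a fold change above 0. Over the 10077 tested genes with a window the median was -0.05. Outside the members, 11 of 12 ERSE genes had a fold change above 0, with a median of 0.14, and the 12 include 5 genes of the pathway lists below. The highest were TRIM5, an antiviral ubiquitin ligase (0.77, limma adjusted p = 0.0990), FICD, an enzyme that AMPylates HSPA5 (0.66, adjusted p = 0.159), SYNPO, an actin-associated protein (0.57, adjusted p = 0.396), and ALG12, a mannosyltransferase of N-glycan assembly (0.53, adjusted p = 0.159). FICD was at 4.89, 4.40 and 2.77 TPM in controls and at 7.79, 6.84 and 5.93 TPM in irradiated tumors. EIF2A was the lowest, at -0.31 (adjusted p = 0.355). For the ERSE-II, 7 of 13 tested genes, HERPUD1 among them, had a fold change above 0, with a median of 0.03. For TGACGTGG it was 54 of 119, with a median of -0.03.

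**Figure D4:**
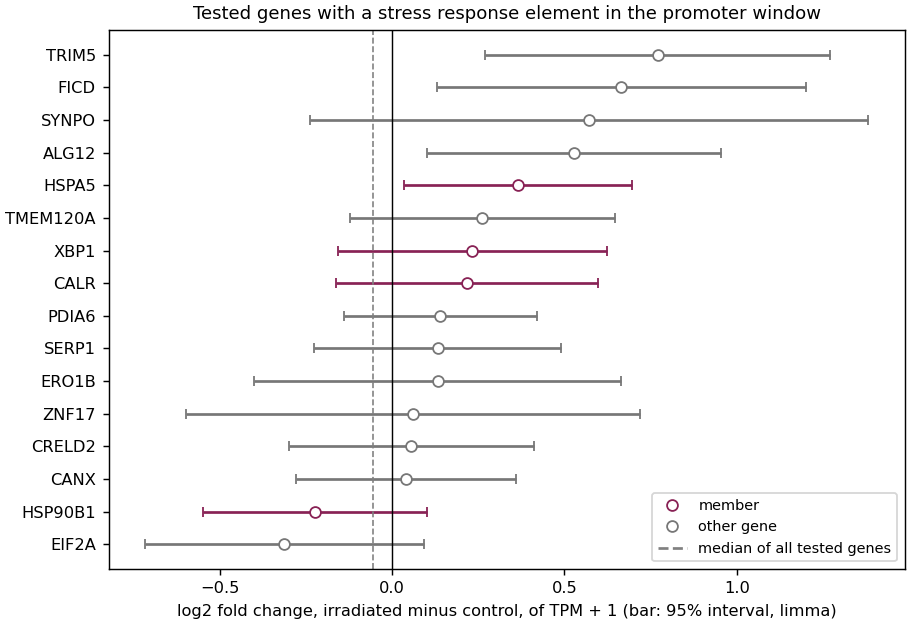
Log2 fold change (irradiated minus control, on TPM + 1) with its 95% interval from limma for the 16 tested genes whose RefSeq promoter window holds the stress response element, with members in purple and other genes in grey. 14 points lie above 0 and none was called, and the members run from -0.22 for HSP90B1 to 0.37 for HSPA5.

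Beyond the members, 102 further genes of the pathway were read from 7 lists, of which 99 were measured. SSR4 rose and EIF2S1, DNAJC10 and SEC63 fell, which makes 1 of 99 higher and 3 of 99 lower, shares near those of all tested genes (1.37% and 1.61%). Their median log2 fold change was 0.06, with 55 of 99 above 0, against -0.06 over all tested genes. No list moved one way throughout.

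Relatives and partners of the sensors had 0 called by limma among 14 measured, with 2 higher and 1 lower at an unadjusted p under 0.05, and a median of 0.00. ATF6B, the paralog of ATF6, was at 49.5, 45.9 and 47.0 TPM in controls and at 52.4, 82.6 and 80.6 TPM in irradiated tumors. All irradiated values exceeded all controls, tumor 1 by little (log2 fold change 0.56, SE 0.19, adjusted p = 0.149). NFYB, a subunit of the CCAAT-binding factor NF-Y that acts at the ERSE, was lowest in the list at -0.53 (adjusted p = 0.214). The other eIF2alpha kinases, which sense heme, viral RNA or amino acid shortage, had 0 of 3 called and 0 at an unadjusted p under 0.05. EIF2AK2 was at 0.20 (adjusted p = 0.771) and EIF2AK4 at -0.36 (adjusted p = 0.264), beside 0.60 for EIF2AK3.

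Genes downstream of EIF2AK3 had the highest median of the 7 lists, 0.52, with 6 of 11 fold changes above 0. That median is the smallest of the 6 values above 0, and the next value down was -0.01. It therefore does not show a shift of the whole list. At an unadjusted limma p under 0.05, 5 of 11 were higher and 1 lower. Of the 14140 tested genes, 20.5% reached it in either direction, 1263 higher and 1633 lower. Without overlap 3 were higher and 1 lower, against 11.6% and 15.0% of tested genes. By adjusted p 0 were called higher and 1 lower, against 1.37% and 1.61%. EIF2S1 encodes eIF2alpha, the substrate of the kinase, and fell from 170, 142 and 134 TPM in controls to 83.2, 101 and 82.5 TPM in irradiated tumors, without overlap (log2 fold change -0.74, SE 0.15, limma adjusted p = 0.0406). CHAC1, which degrades glutathione and is induced through ATF4, was at 5.65, 4.39 and 10.0 TPM in controls and at 20.4, 18.1 and 12.8 TPM in irradiated tumors. Its groups did not overlap and it did not pass (1.28, SE 0.29, adjusted p = 0.0613). Of the 6 fits with 1 tumor left out, EIF2S1 was called in that without control tumor 2 and in no other (largest adjusted p 0.149), and it was not called without trend (0.0867), with no filter on low values (0.0932) and with a replicate block (0.0904).

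Of 24 other ER folding factors, 0 rose and 2 fell, with 15 above 0, 5 higher and 3 lower at an unadjusted p under 0.05, and a median of 0.08. Both that fell are J-domain proteins of the ER like DNAJB9. Other J-domain proteins of this list were not called, with DNAJB11 at -0.15 (limma adjusted p = 0.553), DNAJC1 at 0.10 (adjusted p = 0.806) and DNAJC3 at -0.22 (adjusted p = 0.591). DNAJC10, a disulfide reductase that works with HSPA5, was at 34.9, 30.0 and 27.5 TPM in controls and at 9.10, 16.6 and 13.5 TPM in irradiated tumors (log2 fold change -1.21, SE 0.22, limma adjusted p = 0.0307). SEC63, which recruits HSPA5 to the translocon, was at 32.4, 25.6 and 27.5 TPM in controls and at 12.4, 10.1 and 14.9 TPM in irradiated tumors (-1.14, SE 0.19, adjusted p = 0.0215). Neither gene's groups overlapped. FKBP2, a prolyl isomerase of the ER, had the highest fold change of this list without passing (0.62, adjusted p = 0.0722).

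DNAJC10 was still called without control tumor 2 and without irradiated tumor 2, but in no other fit with 1 tumor left out (largest adjusted p 0.105), nor without trend (0.0529), with no filter on low values (0.101) and with a replicate block (0.0684). SEC63 was still called without control tumor 2 and without irradiated tumor 3, but in no other such fit (largest adjusted p 0.0810), nor with no filter on low values (0.0666).

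In the translocon and signal peptidase list, the highest and lowest fold changes belonged to subunits of 1 complex, and only the highest was called. SSR4, a subunit of the translocon-associated protein complex, rose from 329, 383 and 336 TPM to 574, 595 and 574 TPM, with closely spaced irradiated tumors (log2 fold change 0.74, SE 0.12, limma adjusted p = 0.0186). SSR3, another subunit, was at 286, 255 and 239 TPM in controls and at 168, 189 and 150 TPM in irradiated tumors (-0.62, SE 0.14, adjusted p = 0.0540). The subunits SSR1 and SSR2 were at -0.37 (limma adjusted p = 0.335) and 0.19 (adjusted p = 0.478). The list of 16 had 1 gene called higher, 0 lower, 2 higher and 3 lower at an unadjusted p under 0.05, and a median of 0.09. With 1 tumor left out, SSR4 was called only in the fit without control tumor 2 (largest adjusted p 0.0777), and it was not called without trend (0.0600), with no filter on low values (0.0556) and with a replicate block (0.0577).

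ER-associated degradation had 0 of 20 called by limma, with 2 higher and 1 lower at an unadjusted p under 0.05, and a median of 0.06. SYVN1, the ubiquitin ligase of the complex in which HERPUD1 works, was at 23.4, 19.8 and 23.5 TPM in controls and at 31.3, 36.7 and 33.9 TPM in irradiated tumors (0.59, SE 0.15, adjusted p = 0.0770), beside 0.03 for HERPUD1. DERL2, a channel protein of the same pathway, was lowest at -0.75 (adjusted p = 0.116). ER calcium handling had 0 of 11 called, with 1 higher and 1 lower at an unadjusted p under 0.05. Its extremes were the calcium release channels ITPR1 at 0.44 (adjusted p = 0.147) and ITPR3 at -0.45 (adjusted p = 0.240).

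**Figure D5:**
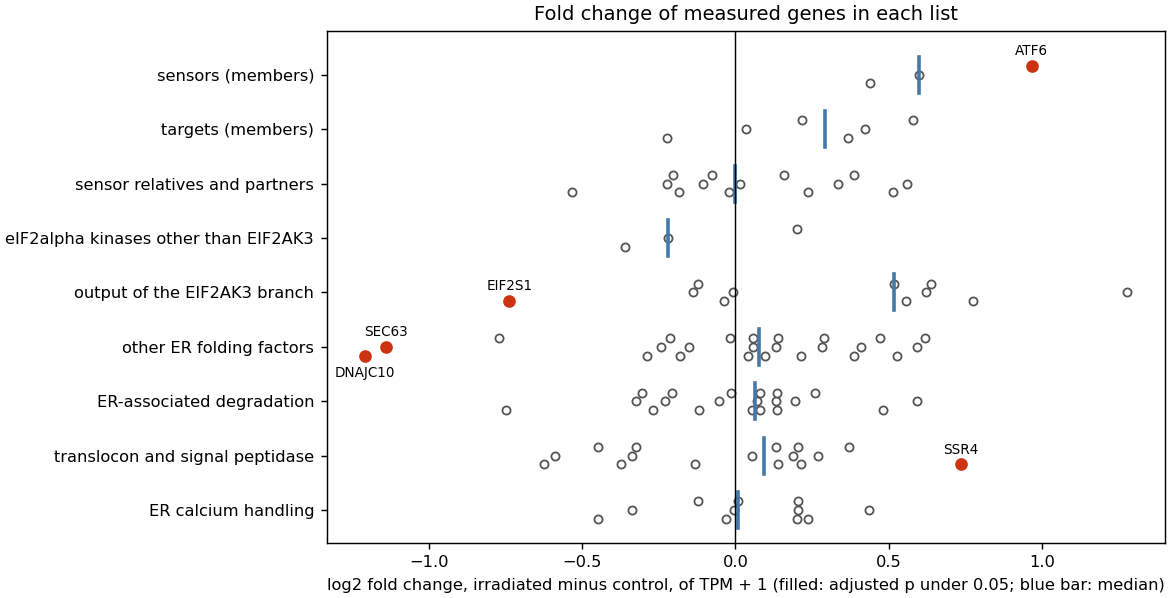
Log2 fold change (irradiated minus control, on TPM + 1) of every measured gene in the 2 member groups and the 7 other lists, 1 point per gene, with filled points where the limma adjusted p is under 0.05 and a blue bar at each median. Filled points are ATF6 and SSR4 above 0 and EIF2S1, SEC63 and DNAJC10 below 0.

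Markers of the line and of host cells were read beside these results. The host is a mouse and the values are for human genes on hg38, with the handling of mouse reads not given. Low values of host markers therefore do not show that host cells were few. The 7 markers of the line (VIM, CD44, EGFR, KRT8, KRT18, CAV1 and AXL) were all above 39 TPM in every tumor and summed to 5311 to 6832 TPM in controls and 4434 to 5441 TPM in irradiated tumors, with 0 called by limma and 3 lower at an unadjusted p under 0.05. Of 6 genes listed as low or absent in the line, ESR1, PGR and CDH1 stayed under 1 TPM in every tumor. The other 3 did not: ERBB2 was at 25.4 to 40.7 TPM, GATA3 at 1.91 to 4.3 TPM and EPCAM at 2.9 to 5.1 TPM. Of 13 skeletal muscle markers (10 measured), 3 were called lower by limma, against 1.61% of all tested genes. Every measured one was lower without overlap, which held for 15.0% of tested genes. Their log2 fold changes ran from -2.05 (MYH2) to -4.27 (ACTA1). The list went from a summed 152 to 429 TPM in controls to 2.17, 107 and 2.36 TPM in irradiated tumors 1, 2 and 3. Of 10 fibroblast markers (6 measured) the 3 collagen genes COL1A1, COL1A2 and COL3A1 fell, and these made up most of a sum of 477 to 1006 TPM in controls and 133 to 216 TPM in irradiated tumors. FAP was also lower without overlap but was not called, at 4.42 ± 2.03 and 1.66 ± 0.609 TPM (log2 fold change -0.995, limma adjusted p = 0.133). PDGFRB, a receptor of fibroblasts and pericytes, was at 3.51 ± 1.42 and 8.09 ± 4.34 TPM (log2 fold change 0.95, adjusted p = 0.211), and DCN was at -0.08 (adjusted p = 0.957). LUM, which was not among those measured, was at 0 in every control and reached at most 0.09 TPM after irradiation. Myeloid markers had 0 of 4 measured called (7 listed) and summed to 82.7 to 104.5 TPM and to 97.0 to 193 TPM, mostly CD68, with PTPRC under 1 TPM in every tumor. CD68 had a log2 fold change of 0.61, and the other 3 measured were below 0 (LYZ -0.99, AIF1 -0.42 and CSF1R -0.13). Endothelial markers summed to at most 9.30 TPM, and those of adipocytes and of B and plasma cells to at most 1.00 TPM. Their part in the fold changes of the ER genes was not tested. In whole tumors, fewer cells of a type and less RNA per cell cannot be told apart.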

How the data were processed

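The authors deposited 1 table of gene TPM with 6 columns, each named for 1 tumor. Per the submitters' processing notes, HISAT2, StringTie, RSEM and hg38 were used. Not given in the sources used here are tool versions, the annotation release, strand use and whether mouse reads were taken out. TPM keep no depth, so no counting interval is given, and they are shares, so a rise in abundant genes lowers others.

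The fold changes and p-values are from limma 3.58.1 (R 4.3.3; trend, two-sided, group as the only term) on log2(TPM + 1). Genes averaging under 1 TPM were left out, which kept 14140, with Benjamini-Hochberg adjustment over all of them at 0.05. The fit was tested on simulated data. Members and lists were chosen with earlier results of these data known. Named genes are the 10 members, called pathway genes and the highest and lowest of each list. ERSE genes, overlapping partners, the uncalled J-domain proteins of the folding list, SSR1 and SSR2 were named after their values were seen. Gene coordinates and exon overlap come from GENCODE release 29, promoters from RefSeq.

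Alternatives were pseudocounts, filters, scalings, variance models, sample weights, a replicate block and each tumor left out. Leaving out control tumor 2 and irradiated tumor 2 together was added after seeing the data. All 6 columns were used.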

Additional observations from a re-analysis of the deposited data

How the results depend on the processing

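The signs of 9 of the 10 genes held in every alternative; HERPUD1 turned to -0.0044 without irradiated tumor 1, to -7e-04 without irradiated tumor 2 and to -0.0102 without control tumor 2 and irradiated tumor 2 together (-0.0044 to 0.1072 with 1 tumor left out). ERN1 was not tested at a minimum mean of 5 TPM. Called over all genes (421) were 133 with no filter, 279 without trend, 1064 with sample weights, 185 with a replicate block, 186 without both tumors 2, and 127 to 791 with 1 tumor left out. Members called higher (1) were 0 with no filter, with a replicate block and without both tumors 2, and 0 to 1 with 1 tumor left out; members called lower stayed at 0. Other pathway genes called higher (1) were 0 with no filter, without trend, with a replicate block and without both tumors 2, 2 with robust estimates, 3 with medians of ratios and without mitochondrial and ribosomal protein genes, 4 with quantile normalization, 6 with sample weights, and 0 to 3 with 1 tumor left out. Those called lower (3) were 0 with no filter and without both tumors 2, 1 without trend and with a replicate block, and 0 to 4 with 1 tumor left out. The cause was not tested, but fewer tumors and more genes tested are part of those settings. Deviations of same-numbered tumors correlated at -0.043, -0.046 and -0.059, which shows no sign of pairing by number. With 3 tumors per group this cannot settle whether the numbers mark pairs. The replicate block also takes up degrees of freedom.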
